A study of Arabidopsis thaliana with 18 samples.

Results

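Transcript levels in whole Arabidopsis thaliana seedlings of the mutant prt6-1 were compared between hypoxia and air. The comparison was chosen by array title and rests on 4 of the 18 arrays of the series, 2 of hypoxic and 2 of aerobic prt6-1 seedlings. The prt6-1 line carries a mutant allele of PRT6, a ubiquitin ligase. It is 1 mutant line, so its response is that of this allele. Seedlings were 7 days old, had grown upright on agar medium with sucrose in days of 16 h of light, and were treated from the end of the light period. Hypoxic seedlings spent 2 h under a flow of argon in sealed chambers in dim light, and aerobic seedlings spent the same time under the same light and temperature in open chambers. Col-0, the wild type, and ate1 ate2, a double mutant of the arginyl transferases that act directly before PRT6, were treated in the same way, with 2 arrays per condition. The remaining 6 arrays held imbibed seeds and entered only a check of tissue markers and 1 alternative fit. The design text calls the replicates independent experiments, and the number of seedlings pooled for each is not stated.

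PRT6 acts in the arginylation route of the N-end rule pathway, where the residue at a protein's N terminus sets how fast the protein is degraded. In Arabidopsis the group VII ethylene response factors, transcription factors that switch on anaerobic genes, begin with a cysteine that is oxidised when oxygen is present, then arginylated by ATE1 or ATE2 and recognised by PRT6. Without PRT6 or the transferases these factors are stable in air, and genes of the anaerobic response are already raised before oxygen is withdrawn. The comparison of hypoxia with air within prt6-1 therefore addresses which part of the hypoxia response remains when this route of degradation is missing.

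Each array gave 1 log2 value made by RMA for each of 22746 probe sets, after 64 control probe sets were left out. The prt6-1 array medians lay between 6.76 and 6.81, the correlation across probe sets was 0.997 between replicate arrays of either condition, and it was 0.992 to 0.993 between a hypoxic and an aerobic array. All 8 measured genes of the photosynthetic light reactions were higher in all 4 prt6-1 seedling arrays than in the prt6-1 seed arrays, by a median of 3.65 log2 units. Of 9 root and root hair genes, 8 were also higher in every seedling array. All 4 seed storage and oil body genes were lower, by a median of 3.65, and of 4 late embryogenesis abundant genes 3 were lower and 1 was higher. Whether seed and seedling arrays were normalised together is not stated, which bears on these differences and on any fit of all 18 arrays. PRT6 itself was not analysed here, so the genotype was not checked by its transcript.

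Hypoxia raised 399 probe sets in prt6-1 and lowered 528, which are 1.75% and 2.32% of those tested (limma across all 12 seedling arrays, Benjamini-Hochberg adjusted p under 0.05). Exactly 1 gene was named for 198 of the raised and 252 of the lowered probe sets. The rises were the larger changes. Their median was 0.69 log2 units, or 1.61-fold, and the falls had a median of -0.56, or 1.48-fold. At least 1 log2 unit was gained by 95 probe sets and lost by 44, and at least 2 units were gained by 17 and lost by 4. Over all probe sets the median change was -0.01. The 2 hypoxia arrays lay above the 2 air arrays for all 399 rises and below them for all 528 falls. Among all probe sets 19.7% were separated upwards in this way and 26.4% downwards, so separation of 4 arrays is common without a call. As every called probe set was separated, separation is no added evidence for any called gene described below. It was also a condition for the 25 largest named rises and 25 largest named falls. In whole seedlings, fewer cells of a type and less RNA per cell cannot be told apart.

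**Figure D1:**
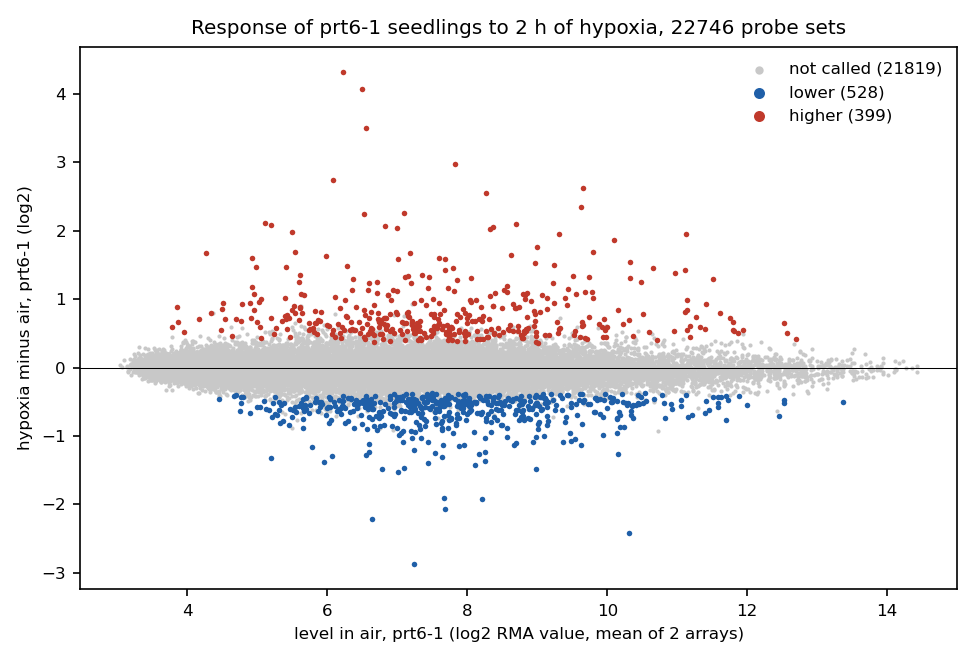
Change between hypoxia and air in prt6-1 (vertical axis, log2 units) against the level in air (horizontal axis, mean log2 RMA value of 2 arrays) for each of 22746 probe sets. The 399 called rises reach 4.33 log2 units, the 528 called falls reach -2.88, and both are spread over the range of levels.

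The calls rested on few arrays, and the falls more so. Without any 1 of the 4 prt6-1 arrays, 171 of the rises (42.9%) and 103 of the falls (19.5%) were still called in all 4 refits. At an unadjusted p under 0.05, 1421 probe sets rose and 2087 fell.

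The largest rise, of 4.33 log2 units, was that of a probe set with no single gene name. Among named genes, the 5 largest rises were those of genes on a list of core hypoxia-responsive genes, which most cell types of Arabidopsis induce when oxygen runs short. Of 49 listed genes 26 had a probe set with 1 gene name. In prt6-1, 20 of the 26 rose, none fell and all 26 fitted changes were positive, with a median of 1.21 log2 units. This list was composed with results of these data already known, so its direction is not independent evidence. AT5G10040 gave levels of 6.67 and 6.31 in air and 10.63 and 10.49 in hypoxia. Its replicate arrays lay close together and the conditions were far apart, with a rise of 4.07 log2 units (SE 0.16, n = 2 per condition), or 16.8-fold (limma adjusted p = 3.58e-09). For AT3G23170 the levels were 6.67 and 6.44 in air and 10.25 and 9.87 in hypoxia, a rise of 3.51 (SE 0.15, limma adjusted p = 5.49e-09).

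AT3G10040 is HYPOXIA RESPONSE ATTENUATOR1, a trihelix transcription factor that restrains the anaerobic genes in a feedback loop. It stood at 7.81 and 7.83 in air and at 10.82 and 10.79 in hypoxia. The conditions did not overlap, and the rise was 2.98 log2 units (SE 0.13), or 7.90-fold (limma adjusted p = 6.58e-09). CML38, a calmodulin-like calcium sensor, stood at 8.37 and 8.15 in air and at 11.05 and 10.59 in hypoxia. Its rise of 2.56 (SE 0.14) came to 5.88-fold (limma adjusted p = 4.83e-08), and the hypoxia arrays differed by less than that change. AT5G42200 rose from 7.23 and 6.97 to 9.30 and 9.41, by 2.26 (SE 0.12, limma adjusted p = 3.94e-08).

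PDC2, a pyruvate decarboxylase that opens the route from pyruvate to ethanol, gave 9.55 and 9.34 in air and 10.58 and 10.60 in hypoxia. The air arrays lay below the hypoxia arrays, and the rise was 1.14 log2 units (SE 0.13), or 2.21-fold (limma adjusted p = 0.000132). The wider list of glycolysis, fermentation and sucrose breakdown did not move with it. Of its 13 measured genes 2 rose and 0 fell (all probe sets: 1.75% and 2.32%), and the median was -0.03. The other riser was AT4G17260, with 9.07 and 9.14 in air and 9.53 and 9.62 in hypoxia, a change of 0.47 (SE 0.12, limma adjusted p = 0.0433) that was not called when any 1 of the prt6-1 arrays was left out. GAPC2, a cytosolic glyceraldehyde phosphate dehydrogenase, and TPI, a triose phosphate isomerase, were not called, with fitted changes of 0.03 and -0.03.

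**Figure D2:**
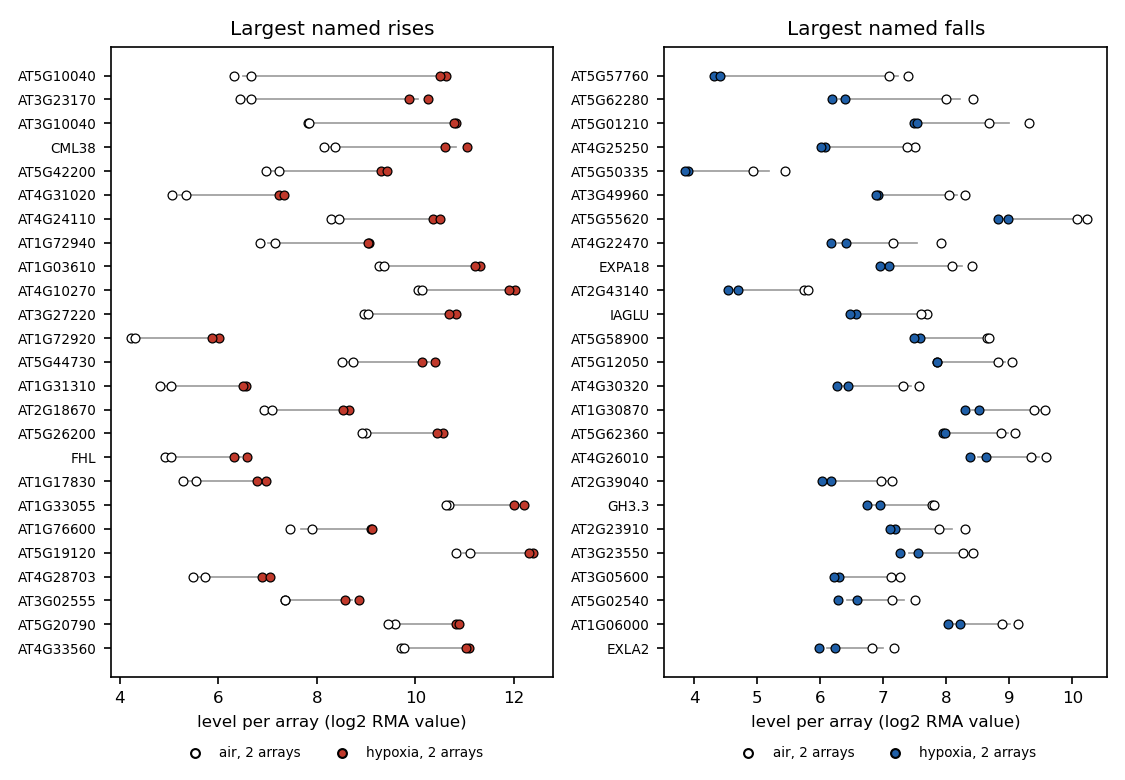
Level on each prt6-1 array (log2 RMA value) for the 25 named genes with the largest rise and the 25 with the largest fall, air open and hypoxia filled, with a line between the group means. Genes were picked only where the hypoxia arrays lay on one side of the air arrays, so this separation is given. The largest rise, 4.07 log2 units, exceeds the largest fall, -2.88.

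Outside the core list the largest named rise was that of AT4G31020, from 5.34 and 5.06 in air to 7.24 and 7.32 in hypoxia, by 2.08 log2 units (SE 0.12, limma adjusted p = 6.58e-08). All 25 genes with the largest named rise, of which 12 were on the core list, were also called higher in Col-0 and in ate1 ate2. All 25 were also called in each refit without 1 of the prt6-1 arrays. FHL, a relative of FHY1 that carries phytochrome A into the nucleus, rose from 4.93 and 5.03 to 6.59 and 6.32, by 1.48 (SE 0.12, limma adjusted p = 2.41e-06). Transcription factors of the WRKY family gave 2 rises and no fall among 6 measured (all probe sets: 1.75% and 2.32%), and their median was 0.00. WRKY6, known from senescence and defence, stood at 7.48 and 7.40 in air and 8.63 and 8.57 in hypoxia, 1.16 higher (limma adjusted p = 7.53e-06). WRKY22, known from defence and submergence, stood at 6.81 and 6.92 in air and 8.02 and 7.84 in hypoxia, 1.06 higher (limma adjusted p = 0.000734). The hypoxia arrays were the higher ones for both genes, while the other 4 WRKY genes lay between -0.14 and 0.01.

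Single members of several other lists rose. GID1A, a gibberellin receptor, gave 8.75 and 8.60 in air and 9.63 and 9.48 in hypoxia, a rise of 0.88 (SE 0.11, limma adjusted p = 0.000227), and was the 1 called gene of 3 on the gibberellin and brassinosteroid list. Among 5 genes of the mitochondrial alternative pathway and oxidative stress, STZ, a zinc finger protein induced by many stresses, rose by 0.88 (limma adjusted p = 0.00959). Its levels were 5.95 and 6.42 in air and 7.01 and 7.11 in hypoxia, and the call was lost in 3 of the 4 refits without 1 prt6-1 array. Among 7 dark and sugar starvation genes AT3G15450 rose, by 0.80 (SE 0.16, limma adjusted p = 0.0113), with levels of 11.70 and 11.52 in air and 12.50 and 12.31 in hypoxia.

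On the list of group VII factors, oxygen sensing and the arginine branch, 3 of 17 genes were measured, and AT3G10040 was the only one called. AT2G44420 and AT2G41760 were not called, with fitted changes of 0.09 and 0.04.

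No measured core gene was among the falls. This was largely fixed by the list, which was composed of hypoxia-responsive genes with results of these data known. The other lists were also chosen with earlier results known. AT5G57760 fell most, from 7.39 and 7.09 in air to 4.31 and 4.41 in hypoxia. The conditions were far apart, and the level fell by 2.88 log2 units (SE 0.26), or 7.34-fold (limma adjusted p = 9.43e-06). AT5G62280 stood at 8.43 and 7.99 in air and at 6.40 and 6.19 in hypoxia. Its air arrays differed by more than its hypoxia arrays but did not reach them, and it fell by 1.92 (SE 0.19, limma adjusted p = 3.07e-05). AT4G25250 fell by 1.40 (SE 0.12, limma adjusted p = 4.84e-06), from 7.51 and 7.38 to 6.08 and 6.01. AT2G39040 fell by 0.95 (limma adjusted p = 0.000147). Of the 25 genes with the largest named fall, 18 were called in every refit without 1 prt6-1 array. The other 7 were AT5G50335, AT4G22470, AT2G43140, AT5G62360, AT3G23550, AT5G02540 and EXLA2.

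Genes of cell wall loosening stood among the falls. Expansins loosen the bonds between wall polymers in growing cells, and of 18 measured, 4 fell and 0 rose. Their median was -0.25, against -0.01 over all probe sets, and 16 of the 18 fitted changes were negative. Over all probe sets 2.32% were called lower and 53.9% had a negative fitted change. EXPA18, an expansin of root hair cells, gave 8.41 and 8.09 in air and 7.10 and 6.95 in hypoxia. The conditions did not overlap, and it fell by 1.23 log2 units (SE 0.16), or 2.34-fold (limma adjusted p = 0.000309). EXPA7, also of root hair cells, gave 7.30 and 7.47 in air and 6.65 and 6.63 in hypoxia, and fell by 0.75 (SE 0.11, limma adjusted p = 0.00122). The remaining called expansins were weaker. EXLA2, with 7.16 and 6.83 in air and 5.98 and 6.24 in hypoxia, fell by 0.89 (limma adjusted p = 0.00464), and its call was lost in 2 refits without 1 prt6-1 array. EXPB2 fell by 0.44 (limma adjusted p = 0.0263), a call lost in 3 of these refits, in the fit with an intensity trend (limma adjusted p = 0.0792) and in that of the compared arrays alone (limma adjusted p = 0.0738). EXLB2 (AT4G30380), an expansin-like gene that the list did not take up and that was picked out after its value was seen, went the other way. It stood at 4.12 and 4.22 in air and 4.94 and 4.83 in hypoxia, 0.72 higher (limma adjusted p = 0.000861).

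Xyloglucan endotransglucosylase/hydrolases cut and rejoin the xyloglucan that tethers cellulose. Of 9 measured, 3 fell and 0 rose, with a median of -0.10 and 8 of 9 fitted changes negative. Among all probe sets 2.32% were called lower and 53.9% had a fitted change below 0. XTH16 stood at 9.09 and 9.18 in air and 8.29 and 8.30 in hypoxia. Its replicate arrays lay close together, and it fell by 0.84 (SE 0.10, limma adjusted p = 0.000236). XTH33 fell by 0.74 (SE 0.13, limma adjusted p = 0.00321), from 7.79 and 7.75 to 6.99 and 7.07. XTH19 fell by 0.52 (limma adjusted p = 0.0465), and this call was lost under quantile renormalization (limma adjusted p = 0.0517) and median centring (limma adjusted p = 0.0666). XTH26, a root hair xyloglucan enzyme, was not called at a fitted change of -0.88. The pectin and arabinogalactan list held 69 genes, and none of the 4 measured was called. Pectin genes outside this list are not covered by that count.

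Of 9 genes on the root and root hair list, 3 fell, beside 2.32% of all probe sets. The 3 were EXPA18, EXPA7 and AT1G30870. AT1G30870 gave 9.57 and 9.40 in air and 8.52 and 8.30 in hypoxia, and fell by 1.07 (SE 0.16, limma adjusted p = 0.000993). The list's median was -0.17 and its members ranged from -1.23 to 0.19. The mean level of the 9 genes was 7.48 and 7.43 in air and 7.04 and 7.08 in hypoxia, and the 3 called members had the largest falls among them. The 8 photosynthesis genes differed little, between -0.10 and 0.06 with none called, and their mean level was 12.67 and 12.76 in air and 12.68 on each hypoxia array. The part of the root share of the sample in the falls was not tested. None of the 4 seed storage and 4 late embryogenesis genes was called.

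Auxin genes gave 2 falls and no rise among 13 measured, with a median of -0.06. Among all probe sets 2.32% fell and 1.75% rose. IAGLU, a glucosyltransferase that conjugates indole acetic acid, stood at 7.69 and 7.61 in air and 6.56 and 6.47 in hypoxia. The conditions were well apart, and the level fell by 1.14 log2 units (SE 0.12), or 2.20-fold (limma adjusted p = 3.42e-05). GH3.3, which joins auxin to amino acids and is induced by auxin, stood at 7.78 and 7.81 in air and 6.94 and 6.75 in hypoxia, and fell by 0.95 (SE 0.15, limma adjusted p = 0.00174). IAA29, a repressor of auxin response, was not called at a fitted change of -0.71, and the other 10 auxin genes lay between -0.14 and 0.14. For ethylene, the 2 measured genes RTE1 and EIN3 were not called, at -0.22 and -0.02.

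Genes of metabolism and detoxification fell singly. APL3, a large subunit of the ADP-glucose pyrophosphorylase that makes the precursor of starch, was the only called gene of 7 in starch metabolism. Its levels were 5.26 and 5.29 in air and 4.62 and 4.56 in hypoxia, a fall of 1.61-fold (change -0.69, SE 0.12, limma adjusted p = 0.00301). Of 14 glutathione S-transferases, which couple glutathione to reactive compounds, 1 fell, GSTU27, by 0.68 (SE 0.11, limma adjusted p = 0.00185), with 9.89 on each air array and 9.28 and 9.13 in hypoxia. Of 50 glycosyltransferases of the UGT family, 3 fell and 0 rose, with a median of -0.10, beside 2.32% lower and 1.75% higher among all probe sets. UGT71C2, UGT71C1 and UGT85A2 fell by 0.56, 0.55 and 0.54 (limma adjusted p = 0.013, 0.0348 and 0.00939), and each call was lost in at least 2 refits without 1 prt6-1 array. Of 6 anthocyanin and flavonoid genes, CHIL, a chalcone isomerase-like protein, fell by 0.47 (limma adjusted p = 0.0325). Its call was lost under median centring (limma adjusted p = 0.0504) and with the compared arrays alone (limma adjusted p = 0.0829).

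Calcium sensors went apart. Of 7 measured calmodulin-like and calcium signalling genes CML38 rose, as given above, and CML42 fell by 0.63 (SE 0.13, limma adjusted p = 0.0115), from 8.74 and 8.70 to 8.12 and 8.07. The call of CML42 was lost in all 4 refits without 1 prt6-1 array. The other 5 lay between -0.23 and 0.26, and the list's median was 0.05. None was called among 24 listed cytochrome P450 genes (median -0.13) and 7 core histones (median 0.08). The same held for 5 listed class III peroxidases (median -0.17) and 2 clock genes (median -0.19). Calls are rare in general, at 1.75% higher and 2.32% lower among all probe sets. The peroxidase list held 11 genes, of which 5 were measured, so peroxidases outside it are not covered. The AP2/ERF, bHLH, heat shock, aquaporin, and nitrate and sulfate transport lists had 1 measured gene each, and none of these 5 genes was called. A single gene does not stand for its family, and family members outside a list are not covered. When the seed arrays joined the fit, so that all 18 arrays shared 1 estimate of the spread, 11 of the calls named here were lost, at limma adjusted p-values from 0.0547 to 0.310. They were AT5G62360, AT2G39040, AT5G02540, AT4G17260, XTH19, AT3G15450, APL3, UGT71C1, UGT85A2, GSTU27 and CHIL.

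**Figure D3:**
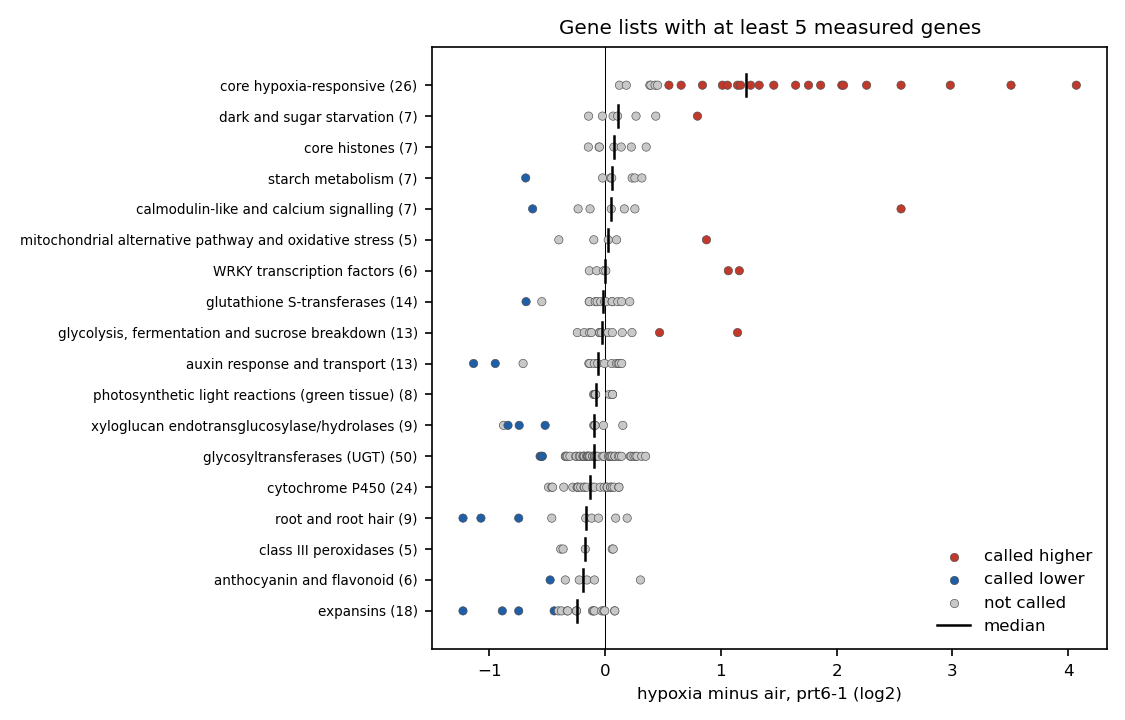
Change between hypoxia and air in prt6-1 (horizontal axis, log2 units) for each measured gene of the lists with at least 5, with the list's median as a bar and the number measured in brackets. All 26 core genes lie right of 0 with a median of 1.21, while 16 of 18 expansins lie left of it with a median of -0.25.

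The same comparison was made in Col-0, which shares no array with prt6-1. In Col-0, 374 probe sets rose (1.64% of those tested) and 104 fell (0.457%). Of the prt6-1 rises 230 were also called higher in Col-0, which is 57.6% of the prt6-1 rises and 61.5% of those in Col-0. Of the prt6-1 falls 66 were also called lower in Col-0, which is 12.5% of the prt6-1 falls and 63.5% of the Col-0 falls. No probe set called in both genotypes went in opposite directions. The fitted Col-0 change had the same sign as the call in 374 of the 399 rises (93.7%, against 47.7% of all probe sets above 0) and in 471 of the 528 falls (89.2%, against 52.3% below 0). The falls called in prt6-1 had a median of -0.22 in Col-0, and the rises 0.59. Since these probe sets were picked for a large change in prt6-1, a smaller median in the other genotype is no test of a difference. Read the other way, the 104 falls called in Col-0 had a median of -0.60 in prt6-1, and the 374 rises 0.58.

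The test of the difference itself, prt6-1 response minus Col-0 response, called 38 probe sets below 0 (0.167%) and 0 above it (0.0%) by limma. At an unadjusted p under 0.05, 1212 lay below 0 and 634 above. In 37 of the 38 the change was smaller in prt6-1, and these 37 were all called higher in Col-0. In prt6-1 26 of the 38 were called higher, 11 were not called and 1 was called lower. Their median change was 0.97 log2 units in prt6-1 and 3.26 in Col-0. Of the 19 with 1 gene name, 16 were on the core list. Only 1 of the 528 falls had a called difference from Col-0. The larger number of falls called in prt6-1 is thus not shown, probe set by probe set, to be a different response. The smallest difference called was 0.76 log2 units in size, so smaller differences among the falls could go uncalled.

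**Figure D4:**
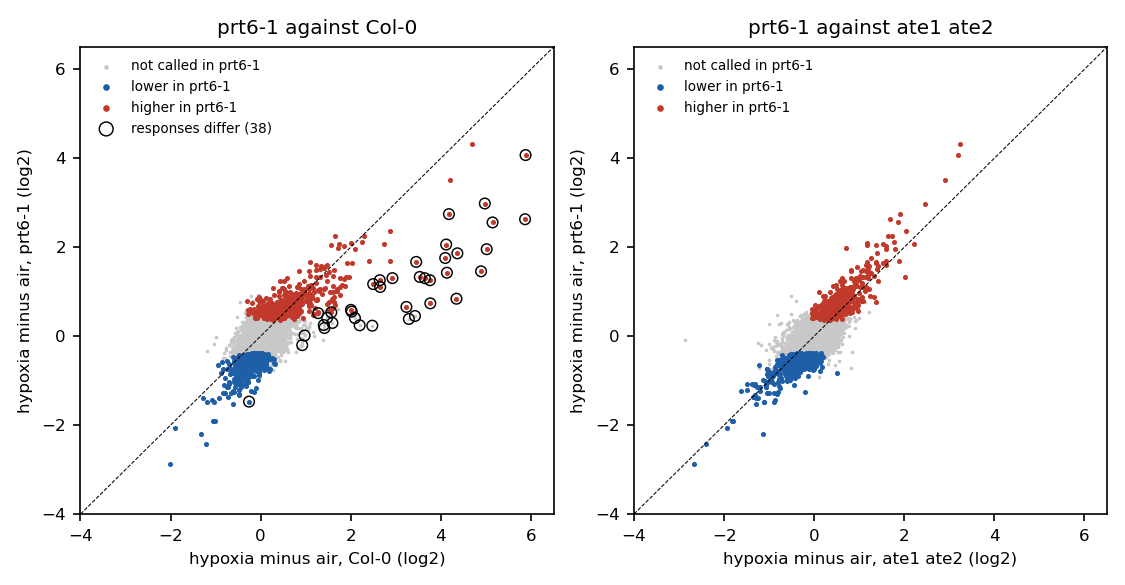
Change between hypoxia and air in prt6-1 (vertical axes, log2 units) against that in Col-0 (left) and ate1 ate2 (right), 1 point per probe set, with the line of equal change dashed. The 38 circled probe sets, whose response differed from Col-0, lie below the line, 37 of them at a rise called in Col-0.

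For the genes with the smaller response given here, the levels in air differed between the genotypes and the levels in hypoxia differed less. With a smaller response and a higher level in air, prt6-1 stands less far above Col-0 in hypoxia by arithmetic. The pattern was thus largely fixed by the choice of these genes. AT2G17850 stood at 5.55 and 6.01 in Col-0 air and 10.22 and 10.03 in Col-0 hypoxia, but at 11.06 and 11.22 in prt6-1 air and 12.08 and 11.89 in prt6-1 hypoxia. Both prt6-1 air arrays thus lay above the Col-0 hypoxia arrays. The response was 0.84 in prt6-1 and 4.35 in Col-0, a difference of -3.50 (SE 0.20, limma adjusted p = 1.60e-07). AT1G33055 stood at 6.58 and 7.38 in Col-0 air, 11.91 and 11.83 in Col-0 hypoxia, 10.67 and 10.63 in prt6-1 air and 12.21 and 12.01 in prt6-1 hypoxia. Here prt6-1 in air lay between the Col-0 conditions, and the responses differed by -3.43 (SE 0.26, limma adjusted p = 2.83e-06).

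In 12 of the 38 probe sets, 7 of them with 1 gene name, the mean level in prt6-1 air was at or above that in Col-0 hypoxia. AT3G29970 was the farthest of these named genes. It gave 4.43 and 4.74 in Col-0 air and 5.91 and 6.09 in Col-0 hypoxia, against 10.83 and 10.76 in prt6-1 air and 10.99 and 10.97 in prt6-1 hypoxia. Its fitted change in prt6-1 was 0.18 (limma adjusted p = 0.569), so it was not called there. AT4G39675 stood at 5.46 and 5.62 in Col-0 air, 9.05 and 8.61 in Col-0 hypoxia, 11.57 and 11.52 in prt6-1 air and 12.11 and 11.75 in prt6-1 hypoxia. It too was above the Col-0 hypoxia arrays on every prt6-1 array, and its fitted change of 0.39 was not called (limma adjusted p = 0.186).

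Across the 26 core genes, the mean level in air was higher in prt6-1 than in Col-0 by over 1 log2 unit for 16, with a median difference of 2.23 and a range from -0.20 to 6.21. In hypoxia the median difference was 0.37, the range ran from -0.38 to 4.98, and 21 of the 26 lay within 1 log2 unit. The smaller response and the raised level in air share the prt6-1 and Col-0 air arrays, so they are not independent of each other. For other core genes no difference in response was called. AT3G23170, AT5G42200 and AT1G72940 rose by 3.51, 2.26 and 2.04 in prt6-1 and by 4.19, 1.64 and 1.57 in Col-0, and their differences from Col-0 were -0.69, 0.62 and 0.47 (limma adjusted p = 0.376, 0.312 and 0.528). PDC2 rose by 1.14 in prt6-1 and 1.80 in Col-0, and the difference of -0.65 was not called (limma adjusted p = 0.337).

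**Figure D5:**
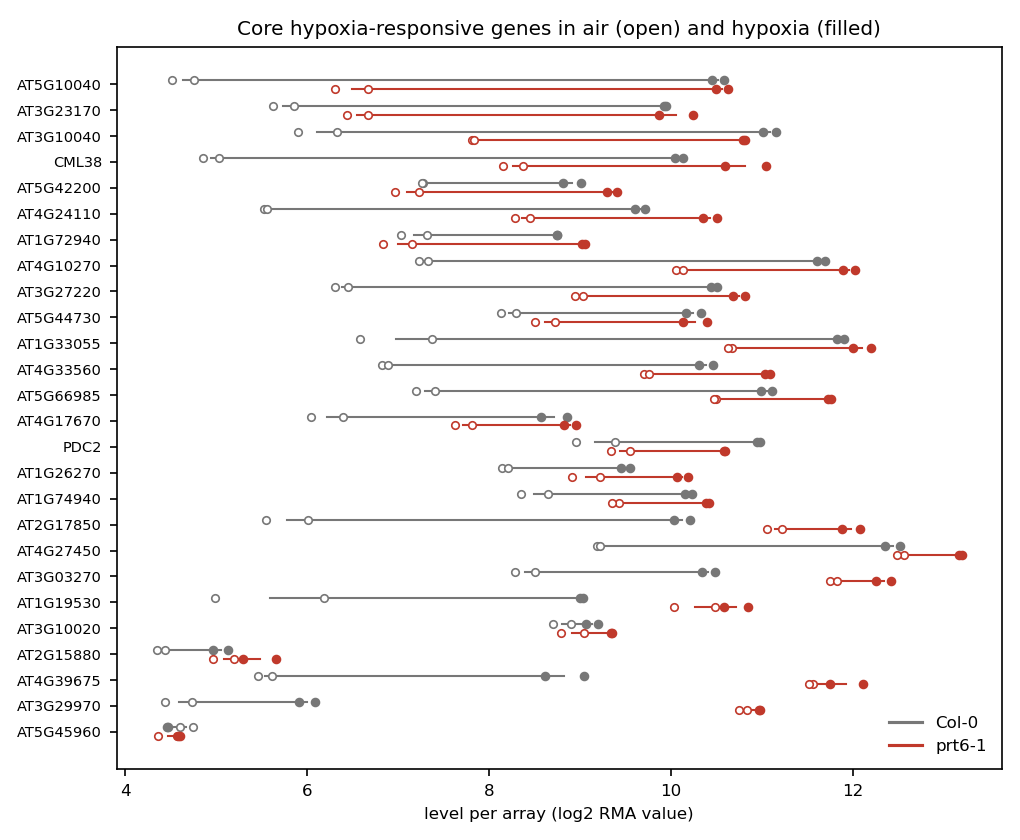
Level on each array (horizontal axis, log2 RMA value) of the 26 measured core hypoxia-responsive genes in Col-0 (grey) and prt6-1 (red), air open and hypoxia filled, with a line between the group means and genes ordered by their change in prt6-1. For 16 genes the prt6-1 air mean exceeds that of Col-0 by over 1 log2 unit, while 21 of 26 hypoxia means lie within 1 log2 unit of each other.

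In ate1 ate2, where the step before PRT6 is missing, hypoxia raised 367 probe sets (1.61%) and lowered 298 (1.31%), again on arrays not shared with prt6-1. Of the prt6-1 rises 232 were also called there, which is 58.1% of the prt6-1 rises and 63.2% of the ate1 ate2 rises. Of the falls 167 were shared, 31.6% of those in prt6-1 and 56.0% of those in ate1 ate2. The sign was the same for 390 rises (97.7%) and 494 falls (93.6%), against 46.0% above and 54.0% below 0 among all probe sets. Of the prt6-1 falls 1, AT4G08780, was called higher in ate1 ate2. The 298 falls called in ate1 ate2 had a median of -0.51 in prt6-1 and -0.22 in Col-0. The 367 rises called in ate1 ate2 had a median of 0.61 in prt6-1 and 0.58 in Col-0. All 3 genotypes share the estimate of the spread that decided these calls. Among the 25 largest named falls of prt6-1, 17 were called lower in ate1 ate2 and 10 in Col-0, and all 25 fitted changes were negative in each of these genotypes. The change of AT5G57760 was -2.66 in ate1 ate2 and -2.01 in Col-0, beside -2.88 in prt6-1. EXPA18 fell by 1.21 in ate1 ate2 (limma adjusted p = 0.00054), while its change of -0.61 in Col-0 was not called (limma adjusted p = 0.071).

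The difference between the prt6-1 and ate1 ate2 responses was called for 1 probe set below 0 (0.0044%) and 0 above it (0.0%) by limma. At an unadjusted p under 0.05, 767 lay below 0 and 622 above. The called gene was AT4G08780, with 6.43 and 6.57 in prt6-1 air, 5.65 and 5.70 in prt6-1 hypoxia, 5.71 and 5.80 in ate1 ate2 air and 6.12 and 6.40 in ate1 ate2 hypoxia. It fell by 0.82 in prt6-1 (limma adjusted p = 0.000885), and every ate1 ate2 hypoxia array lay above the ate1 ate2 air arrays. The difference was -1.32 (limma adjusted p = 0.0355), and it was not called in 9 of the alternative fits. APL3 also had opposite signs, at -0.69 in prt6-1 beside 0.17 in ate1 ate2 and 0.05 in Col-0, but its differences in response were not called.

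Called in all 3 genotypes were 181 of the 399 rises (45.4%) and 44 of the 528 falls (8.33%). Called in prt6-1 and in neither of the other genotypes were 118 rises (29.6%) and 339 falls (64.2%). Over all probe sets 1.64% were called higher in Col-0 and 1.61% in ate1 ate2, and 0.457% and 1.31% lower. These counts depend on the threshold. Of the prt6-1 falls 89.2% had a negative change in Col-0 and 93.6% in ate1 ate2, and only 1 had a called difference from Col-0. Among the named genes, WRKY6, WRKY22, GID1A, STZ, FHL, HYPOXIA RESPONSE ATTENUATOR1, CML38 and PDC2 rose in all 3 genotypes, and IAGLU fell in all 3. GSTU27, CML42, EXLA2, APL3, UGT71C1 and UGT71C2 were called lower in prt6-1 and not called in either other genotype. For none of these 6 was the difference from Col-0 or ate1 ate2 called.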

How the data were processed

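Biotin-labelled cRNA was hybridised to ATH1 arrays, per the labels. The authors deposited log2 values from RMA, 1 for every probe set on every array. RMA adjusts background, equalises the distributions of arrays and joins the probes of a set. The submitters' processing notes also name affy, with no versions, and no genome build is named, so no coordinates are given. Signal over background is unknown without scanner files, and no batch label was used. The number of arrays limits the precision.

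A cell-means model of 6 seedling groups on 12 arrays was fitted with limma 3.58.1 in R 4.3.3 (lmFit, eBayes), with two-sided p-values adjusted by Benjamini-Hochberg over 22746 probe sets and a call at 0.05. Every adjusted p comes from limma, and SE are on the log2 scale. The differences between responses are interaction contrasts of the same fit. The fit was tested on simulated data.

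The platform annotation gave 1 gene for 13513 probe sets (13355 genes), several for 503 and none for 8730. Of the 13513, 13436 had their gene in the TAIR10.1 table, from which symbols were taken. The remaining probe sets entered the counts without a name, so many well-known hypoxia genes are missing from the named ones. A listed gene counted as measured only if it had a probe set with 1 gene name. Other listed genes may be among the tested probe sets without a name. A gene with several probe sets stood with the brightest.

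Named were the 25 largest called rises and falls with separated groups, up to 4 called members of each list (or the 2 largest changes), the 10 largest called differences in response, and the measured oxygen sensing genes. Further members were chosen after their values were seen. The members and the 38 gene lists were chosen with earlier results of these data known, and 8 lists had no measured gene. Of these, the universal stress protein and wound-responsive lists held 0 genes, so they do not show that these families were unmeasured. A planned motif count in promoters was not run, as no promoter sequences were used here.

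Same-numbered replicates were not treated as pairs. The deviations of same-numbered arrays correlated at -0.23 between prt6-1 air and prt6-1 hypoxia, and at -0.01 to 0.26 between the other pairs of seedling groups. The alternatives changed the scaling (quantile renormalization, median centring), the probe sets (without the dimmest 33.3%, or single-gene ones only), the variance model (a trend with intensity, a robust prior, weights per array, a replicate block), the arrays (all 18, the compared ones alone, or without each array in turn) and the threshold. A block within the prt6-1 arrays alone was added after the data were seen.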

Additional observations from a re-analysis of the deposited data

Results flagged for a closer look

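For 20 genes the hypoxia response of prt6-1 differed from that of another genotype by the interaction test of the limma fit, with adjusted p-values from 1.60e-07 to 0.0470. The differences below are log2 units, prt6-1 response minus the other response. Among core genes with a difference from Col-0 beyond -2, those of AT2G17850 (-3.50), AT1G33055 (-3.43), AT1G19530 (-2.97), AT4G39675 (-2.90), CML38 (-2.59), AT4G27450 (-2.58), AT4G10270 (-2.50), AT5G66985 (-2.50), AT3G27220 (-2.34), AT4G33560 (-2.20) and AT4G24110 (-2.06) were called. Smaller differences from Col-0 were called for AT3G10040 (-1.99), AT5G10040 (-1.81), AT3G03270 (-1.47), AT4G14980 (-1.41), AT4G17670 (-1.33), AT3G29970 (-1.23), AT3G13650 (-0.96) and AT1G04770 (-0.76). All 19 had a smaller fitted change in prt6-1 than in Col-0. AT3G13650, which is not on the core list, stood at 9.88 and 9.96 in prt6-1 air and 9.94 and 9.92 in prt6-1 hypoxia, while Col-0 rose from 9.01 and 9.23 to 10.07 and 10.12. In ate1 ate2 the one gene was AT4G08780 (-1.32), which fell in prt6-1 and stood higher in hypoxia in ate1 ate2.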

How the results depend on the processing

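The calls rested on 2 arrays per condition, probe sets near the threshold moved in and out of it, and a change shared by most transcripts cannot be seen after RMA. Of 73 named calls of hypoxia against air, 53 were called under every alternative and 70 under all but the refits without 1 array and the fit of 18 arrays. Of 20 named differences in response, 15 and 18 were. No direction reversed in any named gene.

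Of the 399 rises and 528 falls, 198 and 252 had 1 gene name, and a fit of single-gene probe sets alone gave 192 and 232. Against 399 and 528, the fit of 18 arrays gave 259 and 195. An adjusted p under 0.01 left 226 and 202, and a change of at least 1 log2 unit left 95 and 44. Leaving out 1 prt6-1 array gave 223 to 261 rises and 175 to 212 falls. Fewer probe sets or arrays enter some of these fits, and the cause was not tested for the fit of 18. Quantile renormalization gave 459 and 482 and median centring 450 and 448, which moved the share of rises among calls from 43.0% to 48.8% and 50.1%.

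Replicate numbers were not shown to pair the samples. With the replicate block the counts were 482 and 633, and every rise and fall of the unblocked fit was kept. A block within the prt6-1 arrays alone, chosen after seeing the data, gave 309 and 319 as numbered and 1078 and 1476 with the numbers crossed.

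Differences from Col-0 above 0 numbered 0, but 1 under quantile renormalization, median centring and the intensity trend, and 0 to 10 without 1 array, the 10 being without Col-0 air replicate 2. Those below 0 numbered 38, and 30 to 47 without 1 array. Of the 38, 19 had 1 gene name, and a fit of single-gene probe sets alone gave 18. Differences from ate1 ate2 above 0 numbered 0, but 2 under median centring and the intensity trend, and 0 to 7 without 1 array, the 7 being without ate1 ate2 air replicate 2. Those below 0 numbered 1, but 0 under quantile renormalization, the fit of 18, the compared arrays alone and an adjusted p under 0.01, and 0 to 2 without 1 array. Core genes called higher numbered 20, and 19 to 20 without 1 array. Distinct members of all lists called higher numbered 26, and 22 to 25 without 1 array. Those called lower numbered 17, but 11 in the fit of 18 and 11 to 12 without 1 array.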

Other observations

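Genes outside the lists also moved, and those named here were picked after their values were seen. PYE (POPEYE), a transcription factor of the iron deficiency response, stood at 8.41 and 8.72 in prt6-1 air and at 9.82 and 9.70 in hypoxia. It rose by 1.19 log2 units (limma adjusted p = 0.000207), beside 1.22 in Col-0 and 1.07 in ate1 ate2, all called. ARL, an ARGOS-like regulator of organ size, rose from 9.01 and 9.28 to 10.23 and 10.11, by 1.02 (limma adjusted p = 0.000826), and by 1.68 in Col-0. RR16, a response regulator of cytokinin signalling, fell from 5.41 and 5.89 to 4.91 and 4.63, by 0.88 (limma adjusted p = 0.0023). GH9C1, a cellulase of the wall, fell by 0.86 (limma adjusted p = 0.00416), and EXO, a wall-associated protein tied to growth and brassinosteroids, fell by 0.76 (limma adjusted p = 0.00075). EXO stood at 10.20 and 10.08 in air and at 9.37 and 9.39 in hypoxia. AT4G13840, known as CER26, a gene of wax formation, fell by 0.69 (limma adjusted p = 0.000861), with 9.54 and 9.59 in air and 8.91 and 8.84 in hypoxia. All of these except GH9C1 were called in every refit without 1 prt6-1 array.

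Transcripts encoded in the plastid genome formed another group, which was also picked after its values were seen. Of 69 measured, 5 were called higher in prt6-1 and 0 lower, beside 1.75% and 2.32% of all probe sets. These were psaC of photosystem I, rpoA of the plastid RNA polymerase, ndhG of the plastid NADH dehydrogenase-like complex, and rps2 and rpl14 of the plastid ribosome. Their changes ran from 0.56 to 0.79, and each call was lost in at least 2 refits without 1 prt6-1 array. The median of the 69 was 0.27 with 64 above 0 in prt6-1 (46.1% of all probe sets were above 0), -0.15 with 9 above 0 in Col-0 and 0.17 with 57 above 0 in ate1 ate2. Their mean level was 9.19 and 9.24 in prt6-1 air and 9.56 and 9.43 in prt6-1 hypoxia, with no overlap between 2 and 2 arrays. The 69 were read on the same arrays and are not independent samples. In Col-0 the air arrays, at 9.81 and 9.38, bracketed the hypoxia array at 9.52, and the other stood at 9.34. The 2 Col-0 air replicates thus lay farther apart than the prt6-1 conditions. In ate1 ate2 the levels were 9.57 and 9.25 in air and 9.59 on each hypoxia array. No difference in response was called for any of the 69 by limma.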
